A study of Mus musculus with 6 samples.

Results

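The core circadian clock loop of the liver was followed through 10 genes, taken by symbol: the activators Arntl, Clock and Npas2, the period genes Per1, Per2 and Per3, the cryptochromes Cry1 and Cry2, and the REV-ERB receptors Nr1d1 and Nr1d2. All 10 were found among the 24411 gene symbols of the tables, and all 10 were among the 13563 genes that passed the filter on low counts. The data were bulk RNA sequencing libraries of whole mouse liver, 3 with the genotype Control and 3 with the genotype Cyr61KO, written Cyr61 KO here. Every mouse was male, 24 weeks old and of the strain Cyr61fl/fl, in which the Cyr61 alleles carry recombination sites, and every mouse had been on a diet that produces non-alcoholic steatohepatitis (NASH) for 12 weeks. The labels do not name the Cre line or vector, so the cells that lost Cyr61, the gene of a secreted matricellular protein, are not known here. The hour of day and the feeding state at collection, which set the level of clock transcripts, are likewise missing from the labels. Since the labels do not tie every library to a mouse of its own, p-values cover only the spread between these libraries, which may be technical.

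The clock is a delayed feedback loop. ARNTL (BMAL1) pairs with CLOCK, or with its paralogue NPAS2, binds E-box sequences and activates the Per, Cry and REV-ERB genes. PER and CRY proteins then inhibit this pair, while the REV-ERB receptors repress Arntl, Npas2 and other genes through ROR elements, which the ROR receptors activate. In mouse liver Arntl and Npas2 transcripts are therefore known to peak at another time of day than Per and REV-ERB transcripts, and Cry1 follows later than the Per genes.

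Sequences upstream of these genes were searched for the letters of such elements. RefSeq on GRCm38.p6, the assembly of mm10, gave 13 starts for 9 of the 10 genes, with no entry for Per2. The 250 bases before each start were read on both strands for the E-box CACGTG, the D-box TTATGNAA and TNGGTCA, a loose form of the ROR element core. N stands for any base, and no match overlapped another. Of the 9 genes, 2 held an E-box (Per1 and Cry1), 2 a D-box (Per1 and Per3) and 3 the letters TNGGTCA (Arntl, Per3 and Cry2). In every TNGGTCA match the open base was T or C, so none is read as a ROR element here. Over all 32851 promoters of the table the shares with a match were 6.02%, 3.07% and 9.19%. These shares count single promoters, whereas a gene was counted for a match at any of its listed starts. The sequences below belong to the genes on which the results turn: Arntl, Npas2 and Cry1, which lay higher in every knockout library, and Per1 and Per3 of the period genes. They run 5′ to 3′ on the strand of the gene and end at the base before the start, with matched letters in capitals.

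Arntl, chr7:113207215-113207464, plus strand, first of 2 starts: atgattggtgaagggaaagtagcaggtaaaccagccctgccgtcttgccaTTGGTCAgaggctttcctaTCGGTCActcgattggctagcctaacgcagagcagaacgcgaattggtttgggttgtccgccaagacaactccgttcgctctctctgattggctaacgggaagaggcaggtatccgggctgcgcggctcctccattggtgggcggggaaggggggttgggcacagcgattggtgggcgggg

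Npas2, chr1:39194022-39194271, plus strand: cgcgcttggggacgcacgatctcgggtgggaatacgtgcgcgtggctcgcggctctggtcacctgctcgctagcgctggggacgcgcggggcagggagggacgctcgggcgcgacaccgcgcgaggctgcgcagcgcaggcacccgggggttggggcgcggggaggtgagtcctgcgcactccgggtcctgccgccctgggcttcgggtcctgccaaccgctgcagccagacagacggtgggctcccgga

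Cry1, chr10:85185055-85185304, minus strand: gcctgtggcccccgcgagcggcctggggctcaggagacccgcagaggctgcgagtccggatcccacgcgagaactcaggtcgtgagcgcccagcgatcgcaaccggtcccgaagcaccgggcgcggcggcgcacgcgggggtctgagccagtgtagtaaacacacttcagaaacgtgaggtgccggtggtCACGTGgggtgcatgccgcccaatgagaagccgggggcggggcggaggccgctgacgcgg

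Per1, chr11:69098699-69098948, plus strand, first of 2 starts: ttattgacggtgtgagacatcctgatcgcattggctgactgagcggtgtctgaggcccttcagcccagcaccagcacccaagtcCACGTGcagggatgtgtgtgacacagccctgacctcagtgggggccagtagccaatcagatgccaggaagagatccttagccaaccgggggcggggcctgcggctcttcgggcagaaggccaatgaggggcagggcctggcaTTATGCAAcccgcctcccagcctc

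Per3, chr4:151044666-151044915, minus strand: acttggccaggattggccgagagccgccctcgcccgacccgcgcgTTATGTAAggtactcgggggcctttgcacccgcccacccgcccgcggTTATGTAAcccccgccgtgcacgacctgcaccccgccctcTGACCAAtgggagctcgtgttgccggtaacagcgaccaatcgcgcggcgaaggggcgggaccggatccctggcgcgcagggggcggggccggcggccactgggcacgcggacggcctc

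In Arntl the capitals mark TTGGTCA from base -200 to -194 and TCGGTCA from -181 to -175, both matches to TNGGTCA, where base -1 adjoins the start. Cry1 carries its E-box from -60 to -55. Per1 carries an E-box from -166 to -161 and a D-box, TTATGCAA, from -24 to -17. Per3 holds the D-box TTATGTAA at both -205 to -198 and -158 to -151, and a TNGGTCA match on the other strand from -118 to -112. The window of Npas2 holds none of these letters. A match describes letters, and binding was not measured.

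**Figure D1:**
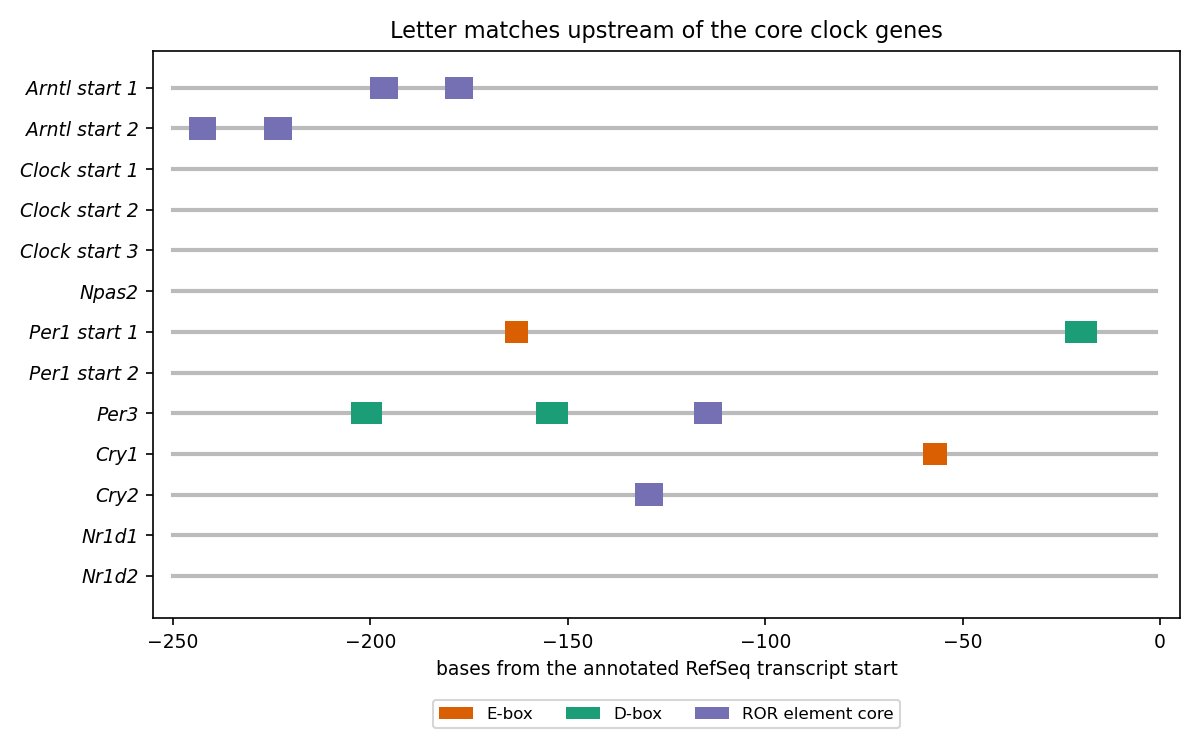
Positions of letter matches to the E-box, the D-box and TNGGTCA, labelled ROR element core (coloured bars), in the 250 bases before each of the 13 RefSeq starts of 9 clock genes. The x axis gives bases from the start. Per1 and Cry1 carry an E-box, and Per3 carries 2 D-boxes.

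The libraries held 21032878 to 40377742 gene counts. Cyr61 itself, a check of the labels, lay between 15.6 and 32.4 CPM in controls and between 2.66 and 3.77 CPM in knockouts, where CPM is a count scaled to the library's depth by TMM, the trimmed mean of M-values (log2 fold change -2.98, edgeR adjusted p = 0.0103, but 0.0615 without Cyr61 KO replicate 1). One library was unlike the rest: genes held 50.9% of the reads of control replicate 2 and 82.8% to 87.6% of those of the other 5. Values without control replicate 2 are therefore given beside the results for the loop and for called genes. Hepatocyte markers were present in every library, with none of the 8 at 0. Their summed level was 90788 to 97545 CPM in control replicates 1 and 3, 38932 CPM in control replicate 2 and 103555 to 127830 CPM in the knockouts. Every knockout library lay above every control for 4 of 8 hepatocyte and 2 of 6 endothelial markers. Every knockout lay below every control for 6 of 6 T and NK cell markers, 5 of 6 cholangiocyte, 5 of 6 stellate, 4 of 5 neutrophil, 2 of 5 B and plasma cell and 2 of 7 macrophage markers. Over all tested genes the groups did not overlap in 35.2%. By edgeR 7 markers were called lower (2 macrophage, 2 neutrophil, 2 stellate and 1 B and plasma cell) and 3 higher (1 hepatocyte and 2 endothelial). It called 2.37% of all tested genes lower and 1.07% higher. Control replicate 2 alone set the upper control limit of most of the sums. T and NK cell sums were 6.31 to 9.83 CPM in the other controls, 68.1 CPM in control replicate 2 and 2.52 to 3.22 CPM in the knockouts. In the same order, sums were 236 to 274, 1372 and 80.4 to 158 CPM for cholangiocytes and 450 to 473, 778 and 181 to 327 CPM for stellate cells. For neutrophils they were 15.98 to 25.8, 66.9 and 2.41 to 6.87 CPM, and for B and plasma cells 13.03 to 17.8, 60.4 and 4.43 to 5.72 CPM. Macrophage sums were 882 to 1207, 1188 and 278 to 782 CPM, and endothelial sums 107 to 115, 172 and 156 to 228 CPM. Only Mmp8, a neutrophil marker, was at 0 in any library. Clock genes are expressed in most cell types, and in bulk tissue fewer cells of a type and less RNA per cell cannot be told apart. The part of these shifts in the clock results was not tested.

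All 3 activators were higher in each Cyr61 KO library than in any control, and Npas2 passed the test. Npas2 (chr1:39193731-39363236 on mm10, GENCODE M21, plus strand), which can take the place of CLOCK beside ARNTL, had control values of 4.44, 4.41 and 2.78 CPM (replicates 1, 2 and 3) and knockout values of 10.9, 9.29 and 18.6 CPM, in the same order. The mean rose from 3.88 ± 0.945 to 12.96 ± 4.99 CPM (SD, n = 3). On the log2 scale the fold change was 1.74 ± 0.34, where ± on log2 fold changes is the standard error (edgeR adjusted p = 0.0378). The adjustment was over all tested genes, and genes below 0.05 were called. Cyr61 KO replicate 3 was the highest library, and the lowest knockout lay above the highest control. It did not pass when control replicate 1 or 2 was left out (edgeR adjusted p = 0.0603 and 0.0605), nor when Cyr61 KO replicate 1 or 2 was (0.0903 and 0.104), while the log2 fold change stayed between 1.40 and 1.95 whichever library was left out.

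Arntl (chr7:113207465-113314126, plus strand), the gene of the obligate partner BMAL1, stood at 16.6, 8.88 and 8.85 CPM in the controls and at 29.2, 17.8 and 30.1 CPM in the knockouts. Control replicate 1 and Cyr61 KO replicate 2 came close to each other, without overlap. The means were 11.4 ± 4.47 and 25.7 ± 6.87 CPM (SD, n = 3), and the log2 fold change of 1.17 ± 0.32 did not pass (edgeR adjusted p = 0.0758, and 0.145 without control replicate 2). Clock (chr5:76209868-76304792, minus strand), which encodes the histone-modifying partner of ARNTL, stood at 36.7, 29.0 and 28.2 CPM in the controls against 45.8, 57.1 and 63.9 CPM in the knockouts. It had the narrowest spread of the 3 activators: the log2 fold change was 0.83 ± 0.21 (edgeR adjusted p = 0.0669, and 0.0993 without control replicate 2).

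**Figure D2:**
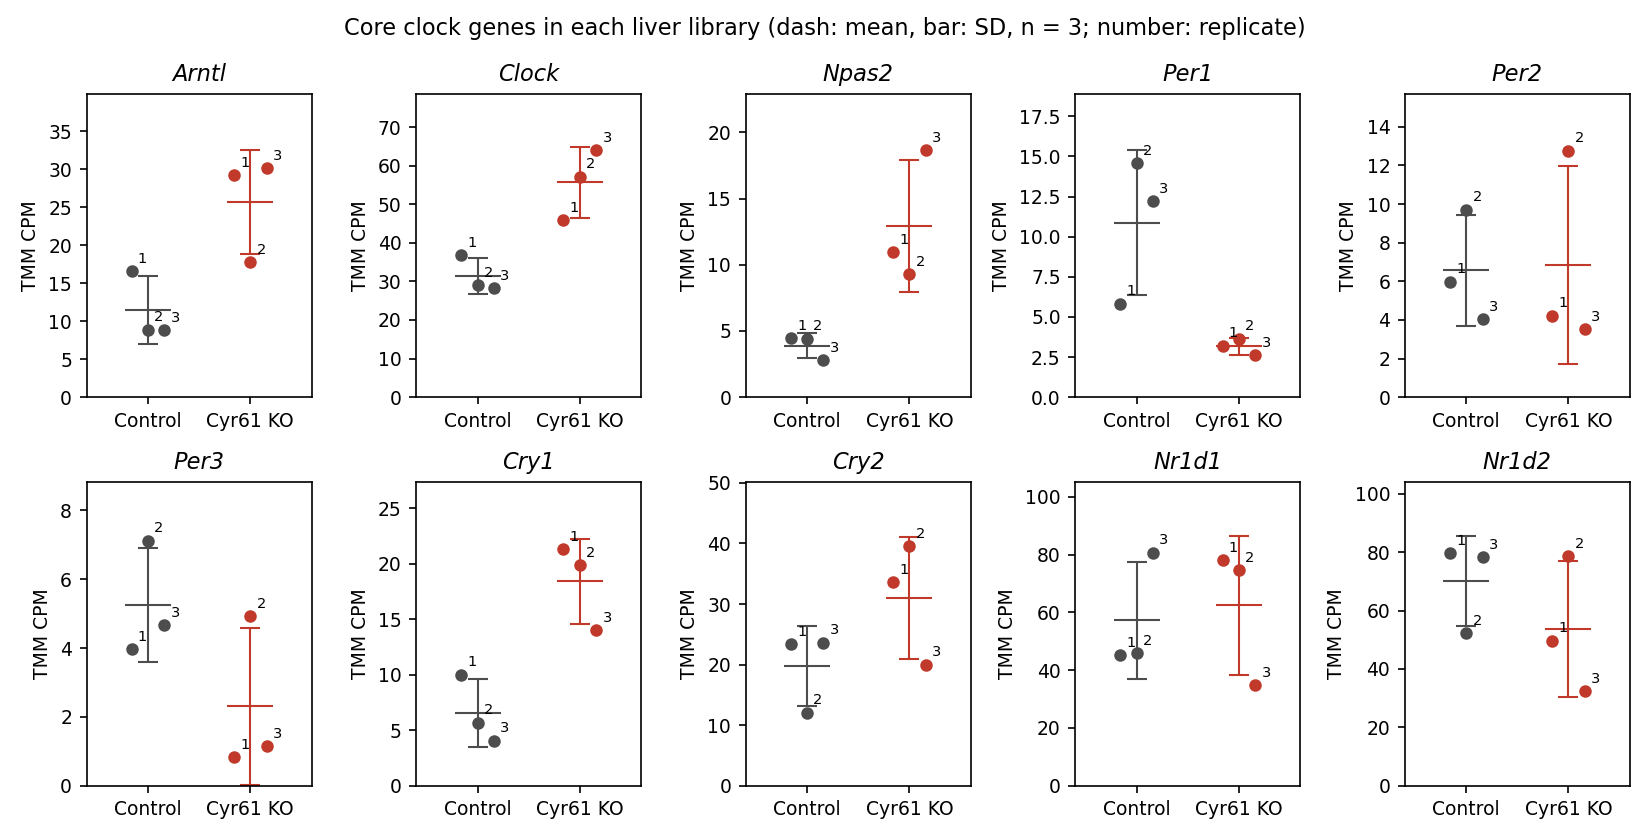
TMM-normalised CPM of the 10 core clock genes in each library (points, numbered by replicate), with the mean (dash) and SD (bar) of the 3 control and 3 Cyr61 KO libraries. Arntl, Clock, Npas2 and Cry1 are higher and Per1 lower in every knockout library, whereas Per2, Per3, Cry2, Nr1d1 and Nr1d2 overlap between the groups.

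The cryptochromes, repressors that bind the CLOCK and ARNTL complex directly, also had positive fold changes, and neither passed with all 6 libraries. Cry1 (chr10:85131700-85185064, minus strand) measured 9.9997, 5.68 and 4.05 CPM across the controls and 21.3, 19.9 and 14.05 CPM across the knockouts. Every knockout value exceeded every control value, and the lowest knockout was replicate 3. The log2 fold change was 1.48 ± 0.35 (edgeR adjusted p = 0.0532, and 0.111 without control replicate 2). Cry1 passed when control replicate 1 or Cyr61 KO replicate 3 was left out (edgeR adjusted p = 0.0425 and 0.0404). It did not pass when any other library was (0.0619 to 0.201). Cry2 (chr2:92403646-92434043, minus strand) measured 23.4, 12.1 and 23.6 CPM across the controls and 33.6, 39.5 and 19.96 CPM across the knockouts, so that Cyr61 KO replicate 3 lay inside the control range. Its log2 fold change was 0.65 ± 0.33 (edgeR adjusted p = 0.232), and 0.42 without control replicate 2.

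The 3 period genes, whose proteins carry the negative feedback with CRY, differed in pattern: Per1 was called lower, while Per2 and Per3 did not pass. Per1 (chr11:69095217-69109960, plus strand) was at 5.81, 14.6 and 12.2 CPM in the controls and at 3.21, 3.65 and 2.64 CPM in the knockout libraries. The control mean was 10.9 ± 4.53 and the knockout mean 3.17 ± 0.511 CPM (SD, n = 3), which is -1.78 ± 0.37 on the log2 scale (edgeR adjusted p = 0.0428). The 3 knockouts lay close together below all controls, while control replicate 1 had the lowest control value. Leaving out control replicate 2 gave -1.48 and ended the call (edgeR adjusted p = 0.0772), as did leaving out any 1 knockout library (0.103, 0.15 and 0.0613 for replicates 1, 2 and 3).

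Per2 (chr1:91415982-91459324, minus strand) showed no common direction, at 5.98, 9.71 and 4.05 CPM in the controls and 4.22, 12.8 and 3.53 CPM in the knockouts. Cyr61 KO replicate 2 had the highest value of all 6 libraries and replicate 3 the lowest. The log2 fold change was 0.05 ± 0.53 (edgeR adjusted p = 0.956), with -0.74 once Cyr61 KO replicate 2 was left out and 0.46 once control replicate 2 was. Per3 (chr4:151003652-151044665, minus strand) was at 3.96, 7.13 and 4.67 CPM in the controls and at 0.832, 4.93 and 1.15 CPM in the knockouts, where replicates 1 and 3 lay below every control and replicate 2 lay among them. Its log2 fold change of -1.20 ± 0.64 did not pass (edgeR adjusted p = 0.256). Leaving out Cyr61 KO replicate 2 gave -2.38, which did not pass either (0.113), and leaving out control replicate 2 gave -0.90.

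The REV-ERB receptors, nuclear receptors that bind heme and repress Arntl, overlapped between the groups. Nr1d1 (chr11:98767932-98775333, minus strand) was at 45.3, 46.0 and 80.7 CPM in the controls and at 78.1, 74.6 and 34.8 CPM in the knockouts. Control replicate 3 was the highest library and Cyr61 KO replicate 3 the lowest, and the log2 fold change was 0.12 ± 0.35 (edgeR adjusted p = 0.838). Nr1d2 (chr14:18204054-18239127, minus strand) was at 79.6, 52.4 and 78.2 CPM in the controls and at 49.7, 78.6 and 32.5 CPM in the knockouts. Its log2 fold change was -0.39 ± 0.33 (edgeR adjusted p = 0.468), and Cyr61 KO replicate 3 again had the lowest value. Leaving out control replicate 2 gave 0.02 for Nr1d1 and -0.54 for Nr1d2.

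By edgeR, 1 of the 10 genes was called higher and 1 lower at an adjusted p below 0.05, where 1.07% of all tested genes were called higher, 2.37% lower and 3.44% in either direction. The groups did not overlap in 5 of the 10 genes, 4 with the knockouts above and 1 below, against 35.2% of all tested genes. The median log2 fold change was 0.39 over the 10 genes and -0.03 over all tested genes. DESeq2 called 5 of the 10, namely Npas2, Cry1, Clock and Arntl higher and Per1 lower, where it called 16.8% of all genes. Scaled by library totals alone, edgeR called 0 of the 10. With that scaling 4 of the 10 had an unadjusted p under 0.05, as did 3691 of all 13563 genes. Npas2 and Per1 were then at 1.46 and -2.11 on the log2 scale, where the median of all genes was -0.30.

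**Figure D3:**
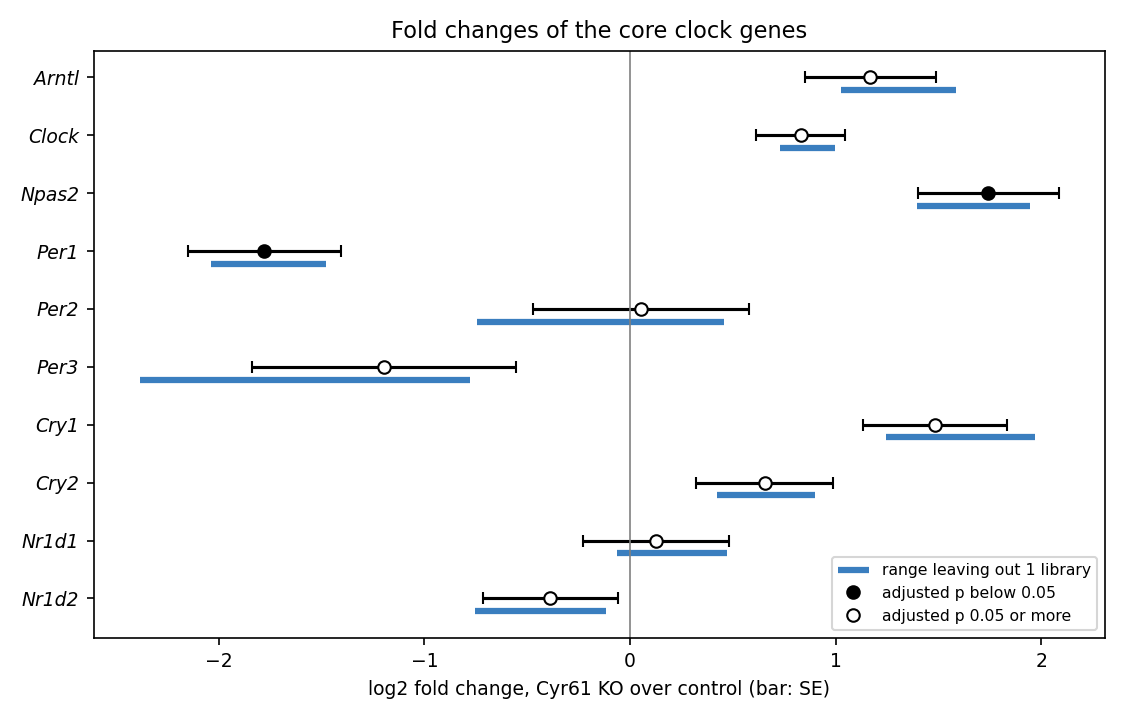
Log2 fold change of each core clock gene, Cyr61 KO over control, with its standard error (black; filled where the adjusted p is below 0.05) and the range over fits that leave out 1 library (blue). Arntl, Clock, Npas2, Cry1 and Cry2 stay above 0 and Per1, Per3 and Nr1d2 below 0 in all 6 such fits, and Per2 and Nr1d1 change sign.

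The knockout libraries differed among themselves in the period and REV-ERB genes. Relative to the control mean, Per3 was at -2.66 and -2.19 on the log2 scale in Cyr61 KO replicates 1 and 3 and at -0.09 in replicate 2. For Per2 the values were -0.64 and -0.90 against 0.96, and for Nr1d2 -0.50 and -1.11 against 0.17. Per1 had the same order over a narrower range, with -1.76 and -2.04 in replicates 1 and 3 against -1.57 in replicate 2. Arntl was lowest in replicate 2 among the knockouts, at 0.64 against 1.35 and 1.40. Nr1d1 and Cry2 instead set replicate 3 apart, at -0.72 and 0.02, against 0.38 to 0.45 and 0.77 to 1.00 in the other knockouts.

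**Figure D4:**
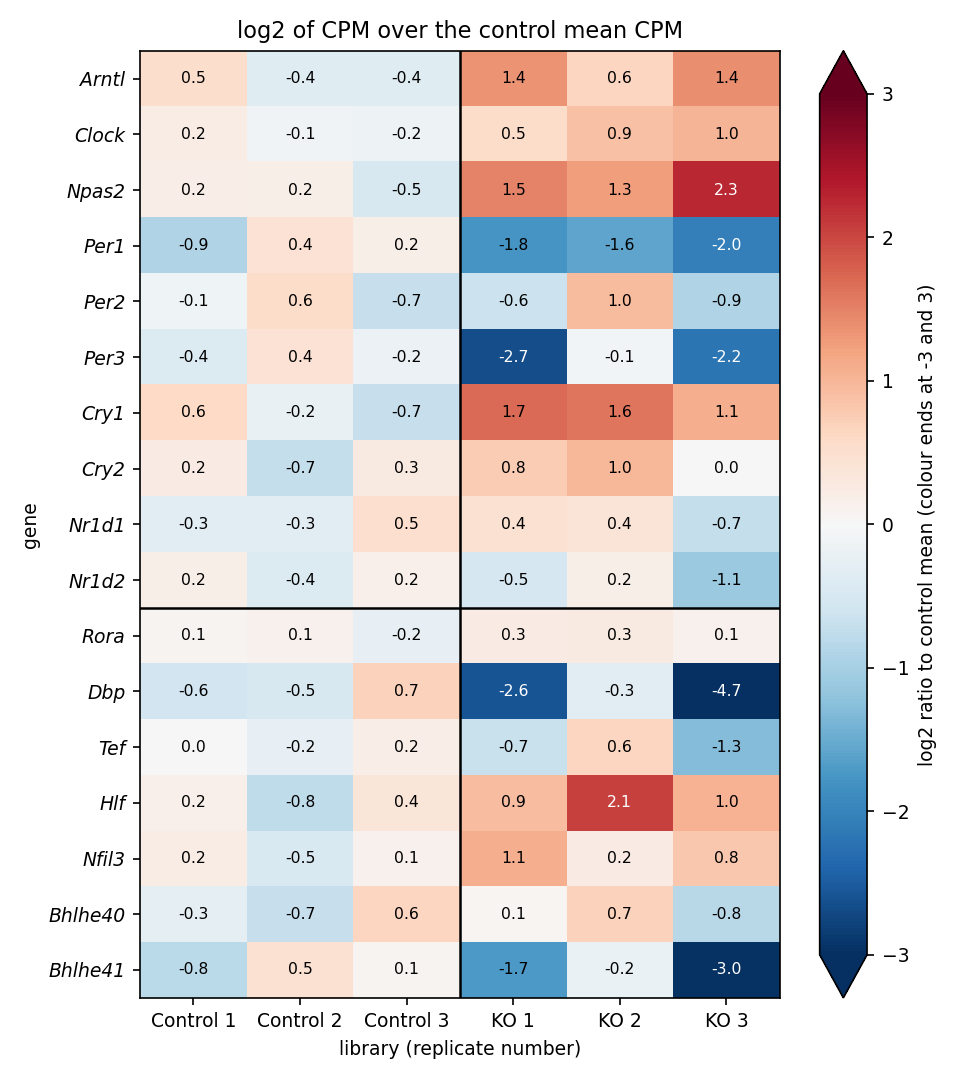
Log2 of CPM over the control mean for the 10 core clock genes (above the line) and 7 further clock regulators (below) in each library; red is above and blue below the control mean. Cyr61 KO replicate 2 differs from replicates 1 and 3 in Per2, Per3, Dbp and Tef, while Arntl, Npas2 and Cry1 are above the control mean in all 3 knockouts.

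Ratios of counts within a library, which do not depend on scaling between libraries, are given without a test, since 3 libraries in each group allow no exact two-sided permutation p under 0.1. Per3 over Npas2 was 0.892, 1.62 and 1.68 in control replicates 1 to 3 and 0.0761, 0.531 and 0.0617 in the knockouts, with no overlap. Per2 over Cry1 was 0.598, 1.71 and 1.00 against 0.198, 0.643 and 0.251, and of the knockouts only Cyr61 KO replicate 2 reached the control range. Nr1d1 over Arntl was 2.73, 5.17 and 9.12 against 2.67, 4.19 and 1.15. Here replicate 2 lay within the control range, and replicate 1 just below the lowest control. Dbp over Arntl, with Dbp as an E-box target outside the loop, was 2.45, 4.85 and 11.04 in the controls and 0.346, 2.73 and 0.0763 in the knockouts. Replicate 2 was again inside the control range, and replicate 3 was the lowest library.

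**Figure D5:**
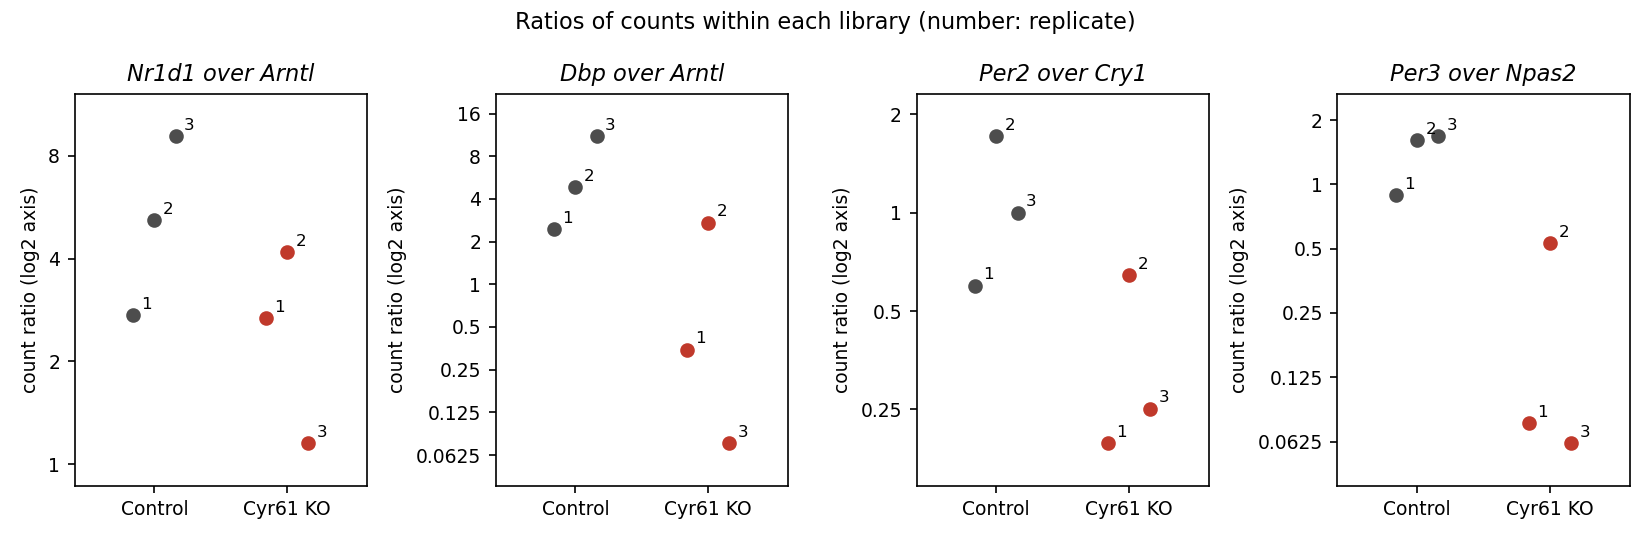
Ratios of gene counts within each library on log2 axes, for Nr1d1 over Arntl, Dbp over Arntl, Per2 over Cry1 and Per3 over Npas2; points are libraries, numbered by replicate. Per3 over Npas2 separates the groups, and Cyr61 KO replicate 2 lies above the other knockouts in all 4 ratios.

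Spread within a group was measured as the SD of log2 CPM and ranked among genes within 0.5 log2 CPM of the same mean. In the knockouts Per3 had an SD of 1.32 and Per2 of 1.00, at percentiles 97.9 and 97.7, followed by Nr1d1 at 0.65 and Nr1d2 at 0.64, at percentiles 95.5 and 94.96. Per1 had an SD of 0.23 in the knockouts, at percentile 30.8. In the controls the members with the widest spread for their level were Cry2, Cry1 and Arntl, with SDs of 0.55, 0.65 and 0.52 at percentiles 89.1, 87.2 and 85.8. Clock was at percentile 34.4 in the controls and 54.9 in the knockouts.

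Levels of different genes were compared as CPM per kilobase of exons in GENCODE M21. In the controls the order from the highest was Nr1d1, Nr1d2, Cry2, Clock, Cry1, Per1, Arntl, Per2, Npas2 and Per3. Nr1d1 was at 18.6 ± 6.59 and Nr1d2 at 12.95 ± 2.84 CPM per kilobase (SD, n = 3), and the only neighbours in this order whose ranges did not overlap were Nr1d2 and Cry2, the latter at 3.12 ± 1.04. Per3 closed the order at 0.547 ± 0.173. In the knockouts Cry1 held the third place at 5.51 ± 1.15 CPM per kilobase, and Per1, the sixth in the controls, was the ninth at 0.562 ± 0.0907. Nr1d1 led there as well, at 20.3 ± 7.82, and every pair of neighbours overlapped.

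Of 27 further clock genes 25 were tested, and 1 was called higher and 0 lower by edgeR. Of the 25, 8 had an unadjusted p under 0.05, as did 3720 of all 13563 tested genes. DESeq2 called 4 and voom with quality weights 7, where they called 16.8% and 33.1% of all genes. Rora, a receptor gene whose product activates through ROR elements, was at 0.22 on the log2 scale and did not pass (edgeR adjusted p = 0.49).

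Among the E-box and D-box regulators 0 of 7 tested genes were called by edgeR, with 3 at an unadjusted p under 0.05, 1 called by DESeq2 and 2 by voom. The all-gene shares were 3.44% by edgeR, 16.8% by DESeq2 and 33.1% by voom. Dbp, a PAR bZIP activator that binds D-boxes, was at 40.6, 43.1 and 97.7 CPM in the controls and at 10.1, 48.6 and 2.30 CPM in the knockouts. As with Per3, Cyr61 KO replicate 2 lay inside the control range and replicates 1 and 3 below it (log2 fold change -1.58, standard error 0.87, edgeR adjusted p = 0.266). Tef, a second PAR bZIP gene, was at 51.4, 42.9 and 58.5 CPM against 31.9, 79.3 and 20.6 CPM, with replicate 2 above and the other knockouts below all controls. Nfil3, which encodes a repressor at D-boxes, was at 0.76 and Bhlhe40, a repressor at E-boxes, at 0.10 on the log2 scale, and neither passed. Hlf, the third PAR bZIP gene, named after its values were seen, was at 18.3, 9.67 and 21.1 CPM in the controls and 30.8, 68.1 and 33.8 CPM in the knockouts. It did not share the pattern of Dbp: all knockouts were above the controls (log2 fold change 1.43, edgeR adjusted p = 0.0726).

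Genes that govern the turnover of PER and CRY, and their partners, had small and uncalled differences among those with the highest counts. The log2 fold changes were 0.18 for Csnk1d, a kinase of PER, 0.20 for Fbxw11, which targets PER, and 0.52 for Usp7. Genes with lower counts differed more: the whole turnover list ran from -1.17 to 0.52 and the partner list from -0.84 to 0.46. In these lists 0 of 9 and 0 of 7 genes were called by edgeR, with 3 and 1 at an unadjusted p under 0.05. DESeq2 called 2 and 0 of them and voom 2 and 2, where they called 16.8% and 33.1% of all tested genes. Of the turnover genes Usp7 lay above every control in all knockouts and 2 not named lay below. Among the partners 1 lay above and 0 below, where 35.2% of all tested genes did not overlap. The partner genes Ncor1 and Hdac3, corepressors of REV-ERB, were at 0.29 and -0.13, and Nono and Wdr5 at 0.19 and 0.30.

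Outputs of the hepatic clock included calls in both directions. Of 9 listed genes 1 was called lower and 1 higher by edgeR, with 5 at an unadjusted p under 0.05, 2 called by DESeq2 and 6 by voom. For all tested genes the shares were 2.37% lower and 1.07% higher by edgeR, 16.8% by DESeq2 and 33.1% by voom. An unadjusted p under 0.05 was seen in 3720 of 13563. Ccrn4l (Nocturnin), a rhythmic nucleotide phosphatase gene, was at 54.7, 107 and 59.7 CPM in the controls and at 4.87, 10.4 and 9.06 CPM in the knockouts, all below the controls. Its log2 fold change was -3.18 ± 0.37 (edgeR adjusted p = 0.0107, and 0.0615 without Cyr61 KO replicate 1). Elovl3, a rhythmic fatty acid elongase gene, went the other way, from 58.7, 39.9 and 36.4 CPM to 525, 240 and 203 CPM (log2 fold change 2.84, edgeR adjusted p = 0.0195). Leaving out Cyr61 KO replicate 1 or 2 ended that call (0.0615 and 0.0588). Without control replicate 2 Ccrn4l and Elovl3 were at -2.79 and 2.79, and both passed (0.0191 and 0.045). Por, Alas1, Upp2 and Cyp7a1, the rate-limiting enzyme of bile acid synthesis, were at -0.45, 0.45, -0.75 and 0.77 and did not pass.

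Lists of signals that reset the clock were read for comparison. Beside them, edgeR called 3.44% of all tested genes, DESeq2 16.8% and voom 33.1%, and 3720 of 13563 had an unadjusted p under 0.05. Of 6 glucocorticoid-responsive genes 0 were called by edgeR or DESeq2 and 1 by voom, 2 had an unadjusted p under 0.05, and the median log2 fold change was -0.07. Klf9, Tsc22d3, Dusp1 and Sgk1 were at 0.53, -0.44, -0.22 and -0.72. Of 6 genes that respond to CREB and fasting 0 were called by edgeR, 2 by DESeq2 and 3 by voom. In this list 3 had an unadjusted p under 0.05, and the median was -0.12. Pck1 and G6pc, both of gluconeogenesis, were at -0.09 and 1.43, and Crem and Sik1 at -0.18 and -0.15, all with overlap between the groups. Nr4a1 and Ppargc1a, named after their values were seen, did not overlap. Nr4a1 lay below every control in all knockouts, at -1.94 (edgeR adjusted p = 0.0504). Ppargc1a lay above every control in all knockouts, at 1.05 (edgeR adjusted p = 0.0801). Per1, the only member of the loop called lower, is a known target of both signals. Whether either had a part in its level was not tested. Of 7 temperature-responsive genes 2 were called lower, the heat shock genes Hspa1a and Hspa1b at -3.22 and -2.13 (edgeR adjusted p = 0.0272 and 0.0184), and the list median was -0.84. In that list 5 had an unadjusted p under 0.05, and 5 were called by DESeq2 and 3 by voom. Of the 7, 5 lay below every control in all knockouts, as did 2421 of the 13563 tested genes. Both calls were lost without Cyr61 KO replicate 1 (0.0904 and 0.0739) or 2 (0.101 and 0.1), that of Hspa1a also with library totals (0.0711), and without control replicate 2 they were at -2.52 and -2.22. Hspa8, Hsph1, Rbm3 and Dnajb1 were at -0.71, -0.32, -0.98 and -0.84 and did not pass.

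Likeness of pattern was taken as the Pearson correlation of log2 CPM over the 6 libraries, against 11850 genes with a mean of at least 1 CPM. The 6 points share libraries and the difference between groups, and with so many genes compared, high values at either end describe these libraries only. Nearest to Arntl were Lonrf3 at 0.993, Phtf2 at 0.988, Itsn1 at 0.972, Dlc1 at 0.961 and Khnyn at 0.959. Most opposed to it were Rbm3 at -0.973, a cold-inducible RNA-binding protein gene, Per1 at -0.967, Syngr2 at -0.963, Rsad2 at -0.961 and Rbm14 at -0.961. Within the loop Arntl went with Npas2 at 0.899, Cry1 at 0.876 and Clock at 0.862, against Per3 at -0.88, and had -0.188 with Nr1d1. Nr1d1 had its nearest genes outside the loop, Nfu1 at 0.975, Mrps10 at 0.974, Kxd1 at 0.966, Efcab2 at 0.956 and Abt1 at 0.955, and its most opposed in Mpp7 at -0.983, Rin2 at -0.971, Pyroxd2 at -0.970, Plcb4 at -0.970 and Tfrc at -0.969. Its highest values within the loop were 0.646 with Cry2 and 0.578 with Nr1d2.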

How the data were processed

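The deposited tables hold read counts per gene for each library, without regard to strand and for either strand. The tools named in the submitters' processing notes are Trimmomatic (0.38) and STAR (2.6.1a), and the builds mm10 and hg38, with no annotation or settings. Counts on the strand of the directional kit were used, and lines for unmapped, multimapping, intergenic or ambiguous reads stayed out. A further deposited table repeated the counts that ignore strand: 24384 of its 24411 rows had a symbol of the library tables and were identical in each library, and 27 had another name. Genes passed edgeR's filterByExpr (minimum count 10, minimum total 15) and entered the two-sided quasi-likelihood F test of edgeR (version 4.0.16, R 4.3.3) with TMM scaling, a group term and Benjamini-Hochberg adjustment over all 13563 tested genes. Standard errors are the size of the log2 fold change divided by the root of F. DESeq2 1.42.0, limma 3.58.1 (voom with quality weights), other scalings, filters, strand, a replicate block and leaving out each library were alternatives. Log2 CPM used a prior count of 2.

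The chi-square per degree of freedom between libraries was 54.9 or more, so none was counted as a duplicate. The test was checked on simulated data. Members and lists were chosen with earlier results of these data known. Every member was named, and of each further list the called genes and up to 4 others by mean CPM. Hlf, Nr4a1 and Ppargc1a were added after their values were seen. Likeness takes 5 genes at each end for Arntl and Nr1d1, leaving out unnamed gene models. Promoter sequences come from RefSeq on GRCm38.p6. Some genes of the further lists are not reported here.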

Additional observations from a re-analysis of the deposited data

Results flagged for a closer look

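Reads on the strand opposite to Per2 were seen in every library and were higher in each Cyr61 KO library than in any control. All 10 genes were screened for knockouts above every control, and Per2 alone was picked out by it. How often this occurs over all genes was not counted. They numbered 7, 6 and 6 in control replicates 1, 2 and 3 and 16, 9 and 21 in the knockouts. Scaled to library size, the means were 0.196 ± 0.0104 CPM and 0.461 ± 0.135 CPM (SD, n = 3), and this difference was not tested. The share of opposite-strand reads at Per2 was 3.18%, 2.08% and 4.38% in the controls and 10.1%, 2.44% and 14.3% in the knockouts, where 0.928% to 1.35% of all stranded gene counts lay on the opposite strand. Cyr61 KO replicate 2, with the most Per2 reads on the gene's own strand, had the fewest opposite-strand reads of the knockouts. GENCODE M21 lists no gene on the other strand within Per2, and an antisense transcript of Per2 is known from mouse liver. These counts are small, and with 3 libraries a group no other value was screened for single samples far from the rest.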

How the results depend on the processing

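Of the 10 clock genes, 2 were called in the reported comparison. The count was 5 with DESeq2, 4 with voom and quality weights, 0 with library totals, 4 with no filter and 4 with the replicate block, and it ran from 0 to 2 when 1 library was left out: 0 without control replicate 2 and 0 without either of the first pair of Cyr61 KO replicates, 1 and 2. Among all genes 467 were called, 145 higher and 322 lower. DESeq2 called 2273, voom with quality weights 4483, library totals 50 (27 higher and 23 lower), no filter 944 and the replicate block 633, and leaving out 1 library gave 7 to 878. Of the further clock genes 1 was called, against 4 with DESeq2, 7 with voom, 0 with library totals and 2 with no filter, and 0 to 2 without 1 library. Per2 changed sign with library totals (-0.32), a CPM of at least 1 in 3 libraries (-0.0023) and the replicate block (-0.10), and ran from -0.74 to 0.46 without 1 library, with -0.18 without control replicate 3. Nr1d1 changed sign with library totals (-0.14) and ran from -0.063 (without Cyr61 KO replicate 1) through -0.0081 (without replicate 2) to 0.47 without 1 library. The other 8 members kept their direction in all 14 alternatives. The cause of these differences was not tested. Same-numbered libraries had correlations of deviations from their group means of -0.06, -0.24 and -0.45. These values show no pairing by number, but 3 libraries a group are too few to exclude one. With the block Arntl and Cry1 passed as well (edgeR adjusted p = 0.0386 and 0.0139). Per3, at 28 to 207 counts per library, has the lowest counts of the 10 genes, which limits its precision.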

Other observations

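Several genes of the loop, and Dbp outside it, overlap a neighbour on the other strand. From unstranded counts the same members of the loop were called, Npas2 and Per1. Arntl, Npas2 and Cry2 overlap Gm45355, Gm20428 and D930015M05Rik. Their opposite-strand share reached at most 0.0929%, 2.47% and 1.13% in any library. Nr1d1 overlaps Thra, a thyroid hormone receptor gene on the other strand, over 1075 bases at its 3′ end. It held 77 to 143 opposite-strand reads per library, 3.44% to 9.68% of its stranded counts. Its log2 fold change was 0.12 from strand-specific and 0.11 from unstranded counts. Dbp overlaps Sphk2 over 737 bases, and the ratio of Dbp over Arntl in control replicate 1 was 2.45 from strand-specific counts and 1.19 from unstranded counts. Per1 and Per3 had 0 opposite-strand reads against 1330 and 707 reads on their own strand, which allows shares of up to 0.226% and 0.424% by counting error.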
